A study of Mus musculus with 6 samples.

Results

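The interferon response and antigen processing genes of primary mouse hepatocytes were examined after stimulation with bone morphogenetic protein 2 (BMP2), a growth factor of the TGF-beta family that acts on cells through SMAD proteins. The members were 53 genes fixed by name: 28 type I effectors and sensors, 6 interferon-gamma GTPases, 13 regulators (receptors, transcription factors and inhibitors) and 6 genes of antigen processing. Of the 53, 51 had a probe set among the 21115 on the array, and Isg15 and Ifi44 were not analysed here. The series compared 3 samples of hepatocytes kept for 24 hours with 50 ng/ml recombinant BMP2 with 3 control samples kept without BMP2 for the same time. Cells of both groups came from C57BL/6 mice, 3 animals in all, and no genetic change was named for either group. Both were plated on collagen with serum and dexamethasone and later moved to serum-free medium without dexamethasone. The BMP2 had been dissolved in 4 mM HCl, and no vehicle was named for the controls. No interferon was named among the additions.

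Interferons are secreted proteins that put cells into an antiviral state. Type I interferons bind a receptor made of Ifnar1 and Ifnar2, and interferon-gamma binds a receptor made of Ifngr1 and Ifngr2. Both receptors signal through JAK kinases to STAT transcription factors, which act with interferon regulatory factors (IRFs) on response elements in gene promoters. The induced genes degrade or sense viral RNA, restrict intracellular microbes and raise the presentation of peptides on class I major histocompatibility complex (MHC) molecules. Hepatocytes carry both receptors and are the target cells of the hepatitis viruses.

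Values were log2 expression values between 6.35 and 14.02, and sample medians ranged from 6.80 to 6.81. A gene was taken as near the array's floor where its mean over the 6 samples was under 7, where differences are understated. In that class were 9 of the 51 members and 12236 of all probe sets. The BMP target gene Id1 was 4.29 ± 0.09 (difference ± SE, log2) higher in BMP2 samples. Of 14 hepatocyte markers 12 lay above the floor class, and the exceptions were Cyp2e1 and Cps1. Of 60 measured markers of 7 other cell types 54 lay near the floor, among them all 22 markers of T, NK, B, plasmacytoid dendritic cells and neutrophils. The other 6 were Cd68, Cdh5, Acta2, Col1a1, Krt19 and Sox9.

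Most members were lower in BMP2 samples, by small amounts. The mean difference (BMP2 minus control) was below 0 for 44 of the 51 members, which is 86.3% of them, against 48.8% of all probe sets. The median difference was -0.11 on the log2 scale, against 0.0007 for all probe sets. In 35 members the difference was below 0 in all 3 replicate pairs, which is 68.6%, against 17.6% of all probe sets. In 26 members all 3 BMP2 samples lay below all 3 control samples, which is 51.0% of the members, whereas 8.25% of all probe sets did so. Oasl1 was the 1 member with all BMP2 samples above all control samples, a pattern found in 8.42% of all probe sets. Among genes above the floor class 37 of 42 members had a lower mean, as had 45.6% of 8879 probe sets, and 24 of 42 did not overlap, against 11.6%. Without both samples of replicate 3 the median difference was -0.06, and 43 of 51 members had a lower mean. These counts are descriptions, because the members were chosen with earlier results of these data known.

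Few members passed a test on their own. Differences were tested with limma over all 21115 probe sets, and the Benjamini-Hochberg adjusted p had to be under 0.05. Ifnar2 fell and was the 1 member past the threshold of 51, against 1.19% of all probe sets (0.573% lower and 0.616% higher). With the replicate number as a block 2 members passed, Ifnar2 and Ifngr1, both lower, against 3.32% of all probe sets (1.64% lower and 1.68% higher). No member passed in the upward direction in either model. At an unadjusted p under 0.05, 24 members were lower and 1 was higher, and 6.1% of all probe sets were lower. In these 2 models the counts of members past the adjusted threshold were thus close to the background, and read alone they say nothing particular about these genes. The counts depended on the model. With the block and an intensity trend 13 of the 51 members passed, all lower, against 1278 of the 21115 probe sets.

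**Figure D1:**
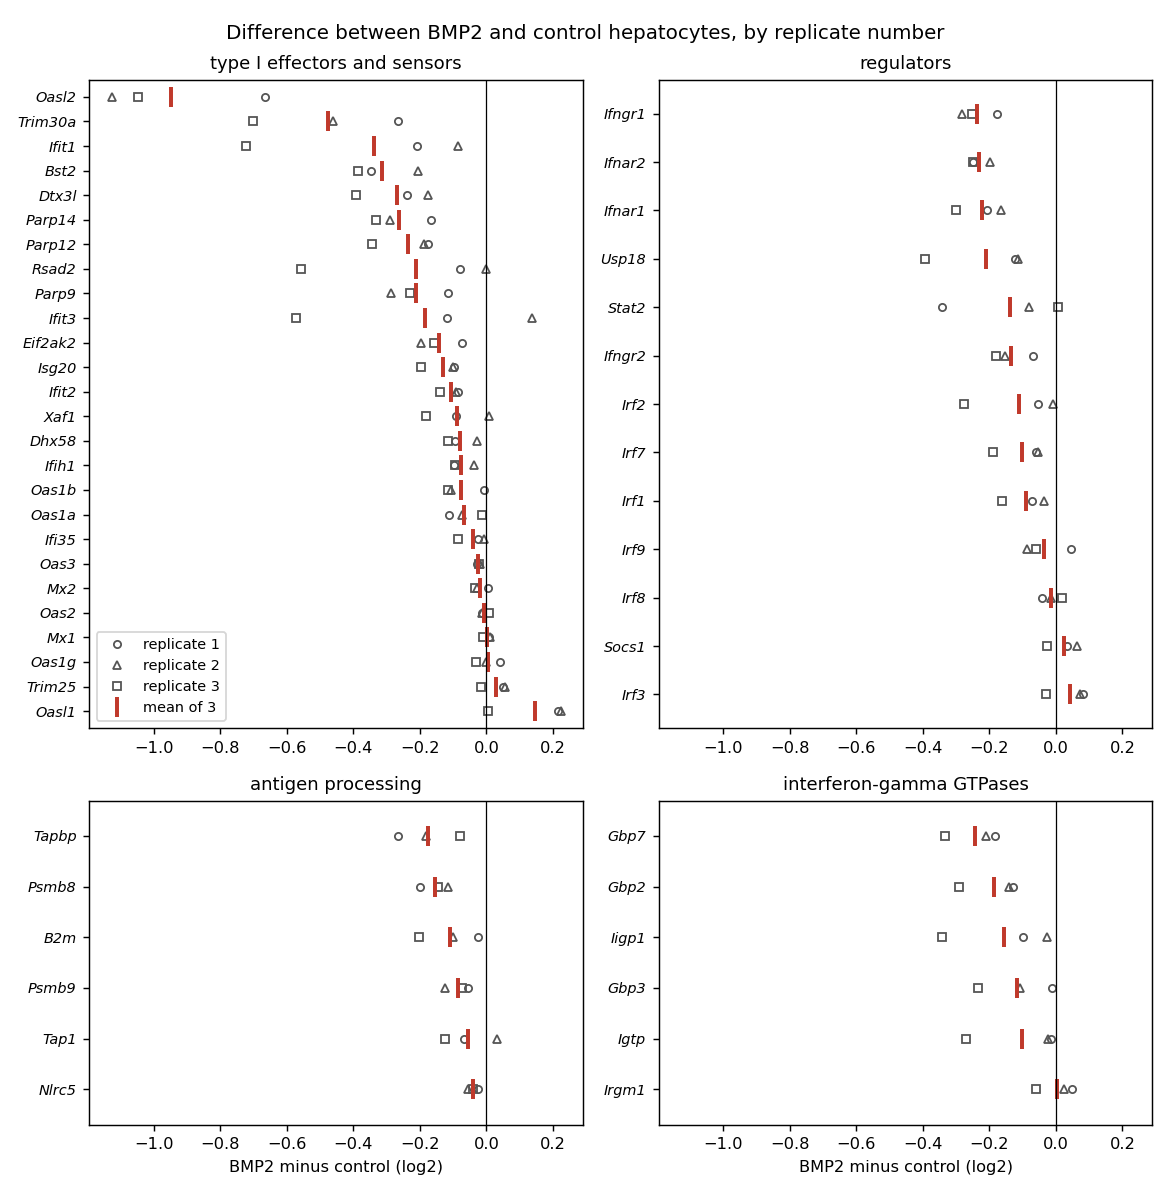
Difference between BMP2 and control (log2) for the 51 members, by role. Open symbols are the differences within replicate numbers 1, 2 and 3, and the red bar is their mean. Most means lie left of 0, the lowest at -0.95 for Oasl2 and the highest at 0.15 for Oasl1, and replicate 3 has the lowest difference for 35 of the 51 genes.

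The 4 roles had similar median differences. The median was -0.10 for the 26 measured type I effectors and sensors, -0.14 for the 6 interferon-gamma GTPases, -0.11 for the 13 regulators and -0.10 for the 6 antigen processing genes. The spread was widest among the effectors (-0.95 to 0.15) and narrowest in antigen processing (-0.18 to -0.04). The number with a lower mean was 22 of 26, 5 of 6, 11 of 13 and 6 of 6 in the same order of roles, against 48.8% of all probe sets. Groups did not overlap, with BMP2 lower, in 13, 4, 5 and 4 members, against 8.25% of all probe sets. No difference between roles was tested.

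The promoters of 6 members are shown, so that their sequences can be compared for shared elements. They are those of both type I receptor genes, of the effectors Bst2, Ifit1 and Oasl2, and of the GTPase gene Gbp7. Each runs from 250 bases before to 50 after the annotated start in the RefSeq annotation of GRCm38.p6, 5′ to 3′ along the gene. Capitals mark 2 motifs. The first is the core of the interferon-stimulated response element, GAAA followed after any 2 bases by a second GAAA, searched on both strands. The other is TTCNNNGAA, the core of the gamma activated site bound by STAT dimers, which reads the same on both strands.
Ifnar2 (chr16:91372533-91372832, plus strand): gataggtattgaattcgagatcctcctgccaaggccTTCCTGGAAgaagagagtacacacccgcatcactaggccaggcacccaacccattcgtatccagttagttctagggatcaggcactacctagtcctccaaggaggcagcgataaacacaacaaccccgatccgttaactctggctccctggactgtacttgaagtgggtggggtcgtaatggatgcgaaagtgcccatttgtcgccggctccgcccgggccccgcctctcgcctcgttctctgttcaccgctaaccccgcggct
Ifnar1 (chr16:91484965-91485264, plus strand): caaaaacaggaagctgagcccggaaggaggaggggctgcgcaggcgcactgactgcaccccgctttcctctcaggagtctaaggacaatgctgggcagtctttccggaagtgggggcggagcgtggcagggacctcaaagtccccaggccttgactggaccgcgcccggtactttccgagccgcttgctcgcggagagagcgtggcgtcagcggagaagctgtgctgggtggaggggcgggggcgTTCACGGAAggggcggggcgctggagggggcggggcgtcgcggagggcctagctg
Bst2 (chr8:71537423-71537722, minus strand): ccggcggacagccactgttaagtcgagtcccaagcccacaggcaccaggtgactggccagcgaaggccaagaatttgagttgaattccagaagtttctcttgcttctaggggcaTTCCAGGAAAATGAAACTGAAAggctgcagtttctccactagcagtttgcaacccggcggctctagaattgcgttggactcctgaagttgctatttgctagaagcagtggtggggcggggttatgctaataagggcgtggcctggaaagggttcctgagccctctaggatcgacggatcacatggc
Ifit1 (chr19:34640639-34640938, plus strand): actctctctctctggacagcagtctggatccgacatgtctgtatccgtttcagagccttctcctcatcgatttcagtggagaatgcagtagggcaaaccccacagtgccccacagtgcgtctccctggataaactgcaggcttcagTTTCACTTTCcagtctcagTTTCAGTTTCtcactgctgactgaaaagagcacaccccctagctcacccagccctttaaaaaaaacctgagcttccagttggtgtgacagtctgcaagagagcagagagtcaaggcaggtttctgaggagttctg
Oasl2 (chr5:114896684-114896983, plus strand): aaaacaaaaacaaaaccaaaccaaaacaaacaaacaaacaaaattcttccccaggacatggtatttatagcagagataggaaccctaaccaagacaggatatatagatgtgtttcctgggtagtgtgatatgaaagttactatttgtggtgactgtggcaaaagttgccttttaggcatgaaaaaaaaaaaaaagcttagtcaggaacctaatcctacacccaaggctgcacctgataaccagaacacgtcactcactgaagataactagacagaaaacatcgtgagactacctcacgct
Gbp7 (chr3:142530086-142530385, plus strand): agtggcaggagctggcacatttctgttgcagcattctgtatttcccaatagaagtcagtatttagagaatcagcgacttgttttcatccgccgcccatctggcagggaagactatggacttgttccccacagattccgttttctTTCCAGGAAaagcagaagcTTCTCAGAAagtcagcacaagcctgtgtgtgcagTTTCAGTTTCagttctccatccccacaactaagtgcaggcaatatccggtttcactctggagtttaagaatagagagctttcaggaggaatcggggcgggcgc
In Bst2 the motifs overlap, and its capitals join TTCNNNGAA and a pair of overlapping response element matches. The Ifit1 promoter has 2 matches of the response element on the reverse strand, at -104 and -85 bases from the start. Gbp7 has TTCNNNGAA at -106 and -87 and the response element at -53. The Ifnar2 and Ifnar1 promoters hold TTCNNNGAA alone, at -214 and -5, and neither motif was found in this window of Oasl2.

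Promoters were found for 41 of the 51 members, 49 promoters in all. The response element occurred in 20 of the 49, or 40.8%, against 3.44% of all 32851 promoters of the same length. TTCNNNGAA occurred in 14, or 28.6%, against 8.3% of all promoters. By role the response element was found for 5 of 5 GTPase genes, 10 of 19 effectors and sensors, 3 of 12 regulators and 1 of 5 antigen processing genes. Of the 49 promoters 6 held both motifs, and in 1 of these, that of Bst2, their matches overlapped. Of all promoters 149 held both motifs, and in 24 of these the matches overlapped. The median difference (BMP2 minus control) was -0.12 for the 19 genes with the response element and -0.10 for the 22 without, and 16 and 19 of them had a lower mean. For TTCNNNGAA the medians were -0.12 in 14 genes with it, all 14 lower, and -0.11 in 27 without, 21 lower. A match describes letters and does not show that a factor binds there.

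**Figure D2:**
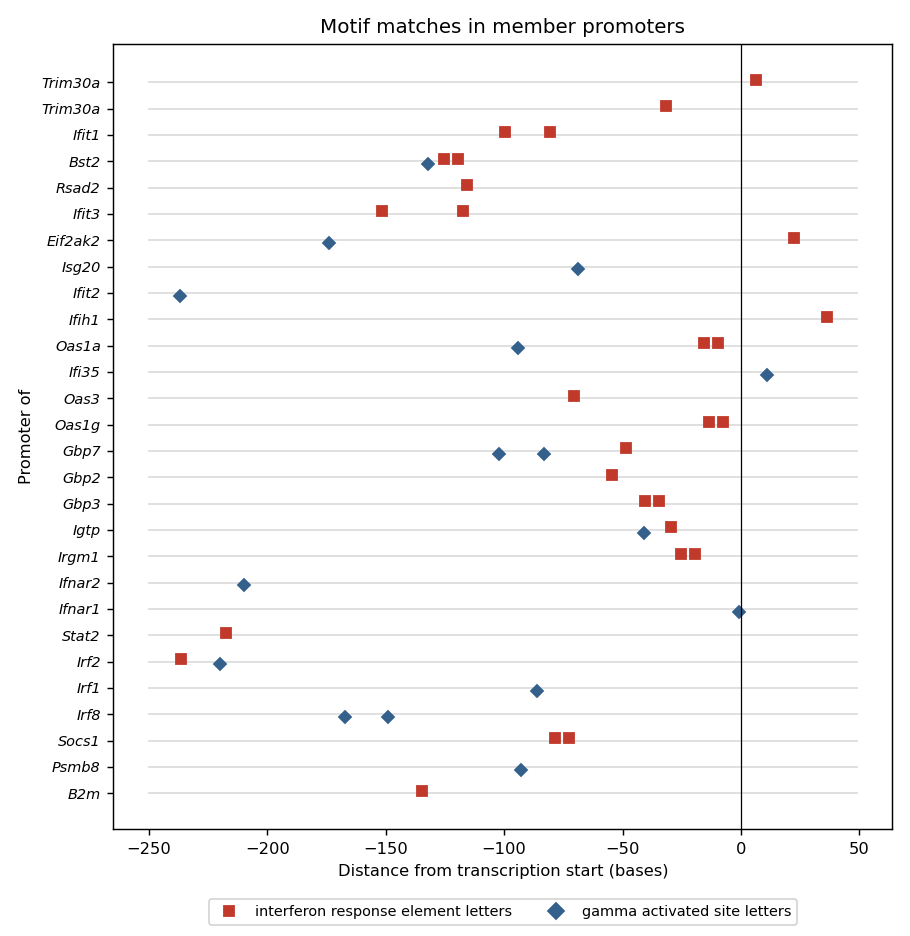
Positions of motif matches in the promoters of members that hold at least 1 match, as distance in bases from the transcription start (vertical line at 0). Squares are matches to the response element and diamonds are matches to the gamma activated site, and the grey line is the window searched. Genes run by role from effectors at the top to antigen processing at the bottom, and a gene with matches in 2 promoters has 2 lines. All 5 GTPase genes, Gbp7 to Irgm1, have a square at or after -59 and before the start.

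Among the receptors, Ifnar2, the subunit of the type I receptor that binds interferon most tightly, stood at 11.19, 11.23 and 11.15 in BMP2 replicates 1, 2 and 3, against 11.44, 11.42 and 11.40 in control replicates 1, 2 and 3. Every BMP2 sample lay below every control sample, and the spread within each group was small. Ifnar2 fell by 0.23 on the log2 scale (SE 0.02), to 85.1% of the control level (limma adjusted p = 0.023; 0.027 with the replicate block). It passed in all 10 alternative models that used every sample. Of the 6 models that left out 1 sample it passed in 2, without BMP2 replicate 2 (adjusted p = 0.037) and without BMP2 replicate 3 (0.034). It did not pass without BMP2 replicate 1 (0.107), control replicate 1 (0.084), control replicate 2 (0.113) or control replicate 3 (0.067), although the difference stayed between -0.25 and -0.21.

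Ifnar1, the other subunit, had 10.09, 10.08 and 10.05 in BMP2 samples and 10.29, 10.24 and 10.35 in control samples. The groups did not overlap, and the difference of -0.22 ± 0.03 (SE) had a limma adjusted p of 0.051. Its adjusted p was 0.074 with the replicate block and 0.047 after quantile normalization. Ifnar1 passed in 5 of the 10 alternative models with every sample and in 0 of the 12 with samples left out. The difference of Ifnar1 was thus of the same size as that of Ifnar2, on the other side of the threshold.

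Ifngr1, the ligand-binding subunit of the interferon-gamma receptor, had 11.20, 11.19 and 11.40 in BMP2 samples, against 11.37, 11.47 and 11.65 in control samples. The groups overlapped, since replicate 3 was the highest of both groups, but within replicate numbers the differences were -0.18, -0.28 and -0.25. The mean difference was -0.24, with a limma adjusted p of 0.413 without the block and 0.048 with it. With the replicate number as a random block the adjusted p was 0.182, so the call rests on the fixed block. Ifngr2, the signalling subunit of the same receptor, had 12.022, 12.002 and 11.904 in BMP2 samples and 12.092, 12.156 and 12.084 in control samples. These did not overlap, and the difference of -0.13 ± 0.04 did not pass (limma adjusted p = 0.234). All 4 receptor chains were therefore lower in BMP2 samples in each of the 3 pairs, and 1 of the 4 passed without the block. In the RefSeq annotation Ifnar2, Il10rb, Ifnar1 and Ifngr2 are consecutive genes. Il10rb, a chain of the interferon-lambda receptor and not a member, differed by -0.08 ± 0.05 (limma adjusted p = 0.670).

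**Figure D3:**
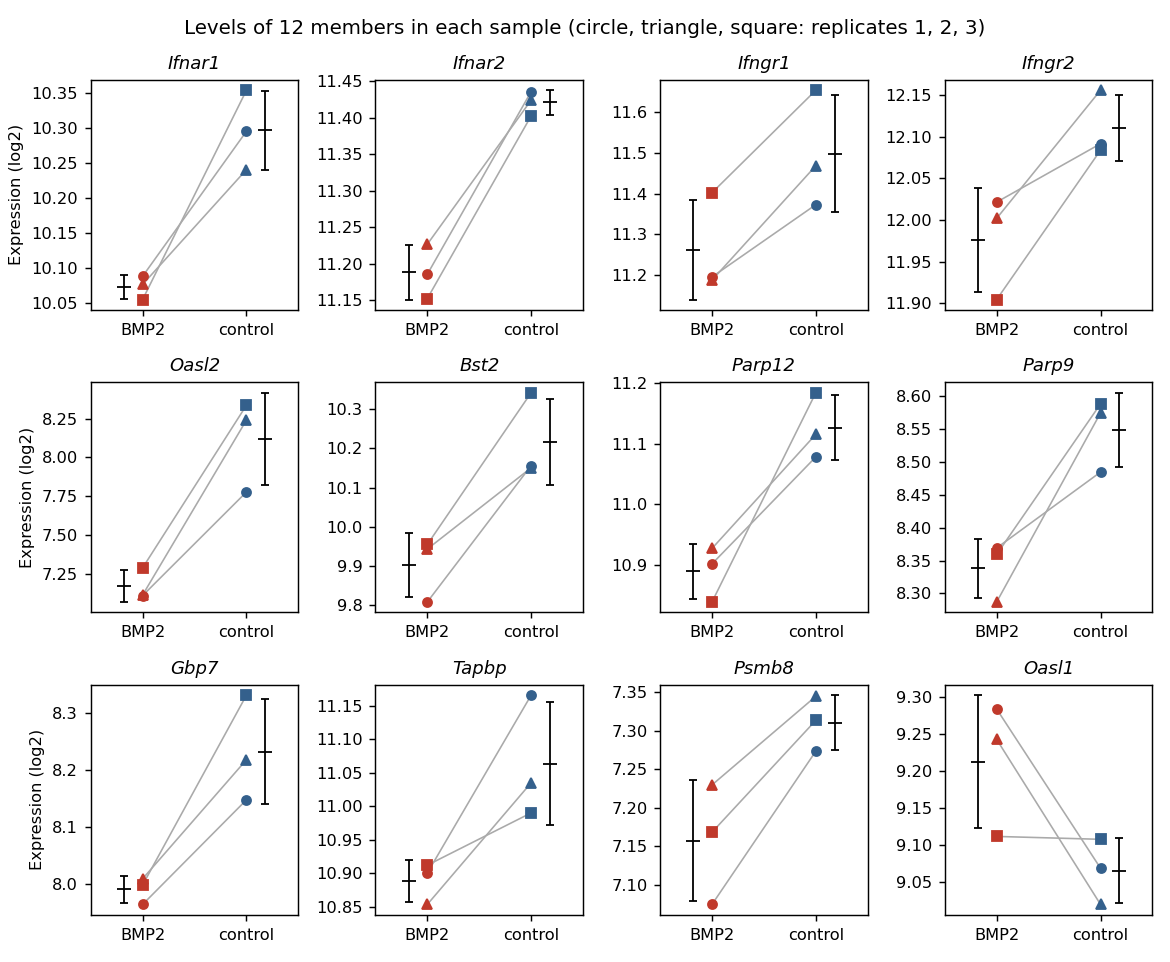
Expression (log2) of 12 members in each sample. Circles, triangles and squares are replicates 1, 2 and 3, in red for BMP2 and blue for control, grey lines join samples of the same number, and black marks are the group mean ± SD (n = 3). Vertical axes differ between panels and do not start at 0. BMP2 samples lie below control samples without overlap in 10 panels, overlap in Ifngr1 and lie above in Oasl1.

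Downstream of the receptors, Stat2 and Irf9 encode partners in the complex that carries the type I signal to the nucleus. Stat2 had 9.50, 9.32 and 9.81 in BMP2 samples, against 9.85, 9.40 and 9.80 in control samples. The groups overlapped widely, with a difference of -0.14 ± 0.18 (limma adjusted p = 0.903). Irf9 had 9.11, 9.10 and 9.11 in BMP2 samples and 9.07, 9.19 and 9.17 in control samples. Its BMP2 values lay within the range of the controls (difference -0.03 ± 0.03, adjusted p = 0.843).

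Irf7, which amplifies interferon production, had 9.08, 9.19 and 9.18 in BMP2 samples and 9.14, 9.25 and 9.37 in control samples. It was lower in each pair but overlapped between groups, and its difference of -0.10 ± 0.07 did not pass (limma adjusted p = 0.692). Irf1, an activator of interferon-gamma targets, had 7.21, 7.19 and 7.19 in BMP2 samples, against 7.28, 7.22 and 7.35 in control samples. The groups did not overlap, but the difference of -0.09 ± 0.03 did not pass (adjusted p = 0.367). Irf2, which competes with Irf1 for its sites, was likewise separated, by a narrow gap (-0.11 ± 0.06, adjusted p = 0.563), and its BMP2 replicate 3 was the lowest sample at 8.20. Irf3, which responds to viral nucleic acid, had 8.34, 8.35 and 8.13 in BMP2 samples and 8.26, 8.28 and 8.16 in control samples. Its difference of 0.04 ± 0.07 was the highest of the regulators and did not pass (adjusted p = 0.939). Irf8, a factor of myeloid and lymphoid cells, lay near the floor at 6.74 in BMP2 and 6.76 in control samples.

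Of the inhibitors, Usp18, which removes ISG15 from proteins and restrains Ifnar2, had 11.16, 11.34 and 11.18 in BMP2 samples, against 11.28, 11.45 and 11.57 in control samples. It was lower in each pair with overlap between the groups (-0.21 ± 0.09, limma adjusted p = 0.445). Socs1, an inhibitor of JAK kinases, had 7.07, 7.05 and 7.02 in BMP2 samples and 7.03, 6.99 and 7.05 in control samples. Its values overlapped and lay just above the floor class (0.02 ± 0.02, adjusted p = 0.804).

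The largest difference of any member was that of Oasl2, a relative of the oligoadenylate synthetases that detect double-stranded RNA. It had 7.11, 7.11 and 7.29 in BMP2 samples, against 7.78, 8.24 and 8.34 in control samples. No BMP2 sample reached the lowest control, and control replicate 1 was the lowest control. The difference was -0.95 ± 0.16, a level at 51.9% of control, with a limma adjusted p of 0.081 (0.054 with the replicate block). Its BMP2 values lay just above the floor class, where differences are understated. With an intensity trend in the variance model the adjusted p was 0.014, and it passed in 7 of the 10 alternative models with every sample. With 1 sample left out it passed in 1 of 6 models, the one that omitted control replicate 1 (0.039), and omitting control replicate 2 gave 0.259. Its neighbour and paralogue Oasl1, which in mice restrains translation of Irf7, had a positive difference. Its values were 9.28, 9.24 and 9.11 in BMP2 samples and 9.07, 9.02 and 9.11 in control samples. BMP2 replicate 3 equalled control replicate 3 to 2 decimals, and the difference of 0.15 ± 0.05 did not pass (adjusted p = 0.330).

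The oligoadenylate synthetase genes themselves were dim. Of Oas1a, Oas1b, Oas1g, Oas2 and Oas3, 4 lay near the floor, and Oas1a, at 7.08 in BMP2 and 7.15 in control samples, was just above it (-0.07 ± 0.02, limma adjusted p = 0.249). The differences of the other 4 lay between -0.08 and 0.003. These genes are close paralogues, and whether their probe sets share signal was not tested.

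Genes of ADP-ribosylation had differences of similar size, and none passed. Parp12, an ADP-ribosyltransferase with antiviral activity, had 10.90, 10.93 and 10.84 in BMP2 samples, against 11.08, 11.12 and 11.18 in control samples. The groups were well apart, with a difference of -0.24 ± 0.04 and a limma adjusted p of 0.065 (0.105 with the replicate block). Parp9, of the same family, had 8.37, 8.29 and 8.36 in BMP2 samples and 8.48, 8.57 and 8.59 in control samples. It differed by -0.21 ± 0.04 (adjusted p = 0.088). Dtx3l, the ubiquitin ligase that forms a complex with Parp9, had 10.14, 10.21 and 9.98 in BMP2 samples, against 10.38, 10.39 and 10.38 in control samples. Its controls agreed closely, and BMP2 replicate 3 was the lowest sample (-0.27 ± 0.06, adjusted p = 0.142). Parp14 had 9.25, 9.25 and 9.04 in BMP2 samples and 9.41, 9.54 and 9.37 in control samples (-0.26 ± 0.07, adjusted p = 0.235). Parp14, Dtx3l and Parp9 are consecutive genes in the annotation, and in each of the 3 the groups did not overlap. Parp12 passed in 7 of the 10 alternative models with every sample and Parp9 in 4, and neither passed in the 12 models with samples left out.

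Bst2, or tetherin, which holds budding virus at the cell surface, had 9.81, 9.94 and 9.96 in BMP2 samples, against 10.16, 10.15 and 10.34 in control samples. The groups did not overlap, and the difference of -0.31 ± 0.07 had a limma adjusted p of 0.142 (0.070 with the block). Isg20, an exonuclease that degrades viral RNA, had 7.43, 7.43 and 7.31 in BMP2 samples and 7.53, 7.53 and 7.51 in control samples. It differed by -0.13 ± 0.04 (adjusted p = 0.220), again without overlap. Trim30a, a regulator of innate signalling in mice, had the next largest difference after Oasl2, at -0.48 ± 0.15 (adjusted p = 0.294).

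The Ifit genes encode proteins that bind viral RNA, and Rsad2 encodes viperin. Differences of Ifit1, Ifit3 and Rsad2 were largest in replicate 3. Ifit1 differed by -0.21, -0.08 and -0.72 in pairs 1, 2 and 3, Ifit3 by -0.12, 0.14 and -0.57, and Rsad2 by -0.08, 0.00 and -0.56. In all 3 genes control replicate 3 was the highest sample and BMP2 replicate 3 the lowest. The adjusted p was 0.370 for Ifit1, 0.774 for Ifit3 and 0.637 for Rsad2 in limma. Ifit2 differed more evenly, by -0.09, -0.09 and -0.14 (adjusted p = 0.641; 0.075 with the block).

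Among the remaining effectors and sensors, Eif2ak2, the RNA-activated kinase that stops translation, differed by -0.14 ± 0.05 (limma adjusted p = 0.389). The cytoplasmic RNA sensors Ifih1 and Dhx58 each differed by -0.08, and the adjusted p was 0.485 and 0.331. Xaf1 (-0.09) and Ifi35 (-0.04) did not pass either. Trim25, a ubiquitin ligase of RNA sensing, was at 9.93 in BMP2 and 9.91 in control samples. The GTPase genes Mx1 and Mx2, classical markers of a type I response, lay near the floor in both groups, at 6.45 and 6.54 in BMP2 samples, against 6.45 and 6.56 in control samples. So small differences of Mx1 and Mx2 do not show that they were unchanged.

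The interferon-gamma GTPases act on membranes around intracellular microbes. Gbp7, a guanylate-binding protein gene, had 7.965, 8.010 and 7.999 in BMP2 samples, against 8.148, 8.219 and 8.332 in control samples. The BMP2 samples lay close together and below every control (-0.24 ± 0.05, limma adjusted p = 0.118; 0.079 with the block). Gbp2 had 7.17, 7.14 and 6.99 in BMP2 samples and 7.30, 7.29 and 7.28 in control samples. It differed by -0.19 ± 0.05 (adjusted p = 0.202), and it passed in 1 of 6 models with 1 sample left out. Its adjusted p was 0.037 without BMP2 replicate 3, its lowest sample, and up to 0.434 without control replicate 2. Gbp3 (-0.12, near the floor) and Iigp1 (-0.16), an effector of the IRG family, did not overlap between groups, whereas Igtp (-0.10) did.

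Irgm1, a regulatory IRG protein gene, was the exception among the GTPases. It had 11.73, 11.84 and 11.79 in BMP2 samples, against 11.68, 11.82 and 11.85 in control samples. The groups overlapped throughout, and the difference of 0.004 ± 0.05 (limma adjusted p = 0.994) changed sign in 7 alternative models. Gbp7, Gbp3 and Gbp2 are neighbours in 1 gene cluster, together with Gbp5 and Gbp2b.

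In antigen processing all 6 members had a lower mean, against 48.8% of all probe sets, and none passed in limma. An unadjusted p under 0.05 with BMP2 lower was found for 4 of them, against 6.1% of all probe sets. Tapbp, or tapasin, which loads peptides onto class I molecules, had 10.90, 10.85 and 10.91 in BMP2 samples, against 11.17, 11.04 and 10.99 in control samples. The groups did not overlap, and the difference of -0.18 ± 0.05 had an adjusted p of 0.232. Psmb8, a catalytic subunit of the immunoproteasome, had 7.07, 7.23 and 7.17 in BMP2 samples and 7.27, 7.34 and 7.31 in control samples. It differed by -0.15 ± 0.04 (adjusted p = 0.240; 0.067 with the block).

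B2m, the invariant chain of class I molecules, had 13.28, 13.30 and 13.15 in BMP2 samples, against 13.30, 13.40 and 13.36 in control samples. The groups met at 1 pair of equal values (-0.11 ± 0.05, limma adjusted p = 0.463). Psmb9, another immunoproteasome subunit, differed by -0.08 ± 0.03 (adjusted p = 0.301) and the peptide transporter gene Tap1 by -0.05 ± 0.04 (adjusted p = 0.707). Psmb9, Tap1 and Psmb8 are consecutive genes. Nlrc5, the transactivator of class I genes, had 7.38, 7.35 and 7.35 in BMP2 samples and 7.41, 7.41 and 7.39 in control samples. This was the smallest difference of the 6, at -0.04 ± 0.01, with no overlap (adjusted p = 0.310).

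Other genes of the pathway were read from 6 lists that hold no member. Of 16 measured interferon ligand genes, 13 lay near the floor, none passed in limma in either direction and 0 had an unadjusted p under 0.05. Their median difference was -0.001. Ifnb1 and Ifng had means over the 6 samples of 6.52 and 6.63, so neither was measured above the floor. The 3 ligand genes above it were Ifnl2, Ifna5 and Ifnl3, at means of 9.87, 7.75 and 7.07. Ifnl2 was lower in each pair with overlap between the groups (-0.16 ± 0.13, limma adjusted p = 0.792; 0.178 with the block). Ifna5 differed by -0.01 and Ifnl3 by 0.01. Whether the probe sets of the ligand genes share signal was not tested. Of 16 other signalling genes none passed (1 had an unadjusted p under 0.05, the kinase gene Tyk2, higher by 0.07 ± 0.03), and the median difference was -0.0003. Of 15 nucleic acid sensing genes none passed limma without the block. At an unadjusted p under 0.05, 6 were lower and 1 was higher, against 6.1% of all probe sets lower and 12.5% in either direction. Of the 15 genes 11 had a lower mean, against 48.8% of all probe sets, and the median difference was -0.04. With the block Ikbke, a kinase that activates IRFs, fell (-0.34, adjusted p = 0.042), against 1.64% of all probe sets. The gene higher at an unadjusted p under 0.05 was Ticam1, the adaptor of Tlr3 (0.07 ± 0.02, limma adjusted p = 0.152).

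Of 48 other interferon-induced genes 3 fell, none rose and 45 did not pass, with a median difference of -0.03. With the block 4 fell, adding Rnf213, a large ubiquitin ligase (-0.22, limma adjusted p = 0.322; 0.042 with the block). A mean below 0 was found for 40 of the 48, against 48.8% of all probe sets, and 0.573% of all probe sets fell without the block and 1.64% with it. Pml, the scaffold of nuclear bodies, had 9.23, 9.22 and 9.25 in BMP2 samples, against 9.54, 9.51 and 9.54 in control samples. Both groups were very tight, and Pml fell by 0.29 on the log2 scale (SE 0.01, limma adjusted p = 0.0029), and it passed with any 1 sample left out (adjusted p 0.013 to 0.033). Ifitm3, which blocks the entry of enveloped viruses, had 12.51, 12.55 and 12.48 in BMP2 samples and 12.82, 12.93 and 12.97 in control samples. It fell by 0.40 (SE 0.04, adjusted p = 0.034) and met the threshold in 1 of the 6 leave-one-out models (0.151 at most, when control replicate 2 was omitted). Apobec3, a cytidine deaminase of retroviral defence, fell by 0.23 (SE 0.02, adjusted p = 0.018) near the floor, and it also met it in 1 of 6 (0.089 at most, when BMP2 replicate 2 was omitted).

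Of 10 other GTPase genes all 10 had a lower mean, against 48.8% of all probe sets. Their median difference was -0.02 and the highest was -0.001. Of the 10 genes 8 lay near the floor and 1 fell, against 0.573% of all probe sets. That gene was Gbp9, near the floor at a mean of 6.80 in BMP2 and 7.07 in control samples (-0.27 ± 0.04, limma adjusted p = 0.048), and it met the threshold in none of the 6 leave-one-out models (0.061 to 0.168). With all samples kept, Gbp9 passed in 7 of the 9 alternative models that included it, among them the replicate block (0.027). The call was lost after quantile normalization (0.051) and median centring (0.061). Ifi47, an IRG family GTPase, had 8.20, 8.25 and 8.29 in BMP2 samples, against 8.56, 8.65 and 8.97 in control samples (-0.48 ± 0.11, adjusted p = 0.158). Of 30 other antigen processing genes none passed limma without the block. At an unadjusted p under 0.05, 10 were lower and 0 were higher, against 6.1% of all probe sets lower. A lower mean was found for 23 of the 30, against 48.8% of all probe sets. With the block 3 fell, H2-Q6, H2-K1 and the chaperone gene Calr, against 1.64% of all probe sets. The class I heavy chain gene H2-K1 had 12.21, 12.29 and 12.22 in BMP2 samples and 12.40, 12.46 and 12.39 in control samples. It differed by -0.18 ± 0.03 (limma adjusted p = 0.089; 0.023 with the block). H2-Q6, a class I gene of the Q region, had 9.80, 9.89 and 10.03 in BMP2 samples, against 10.33, 10.56 and 10.71 in control samples. Its difference of -0.62 ± 0.11 was the largest of this list (adjusted p = 0.092; 0.023 with the block). H2-D1, another heavy chain gene, differed by -0.27 ± 0.04 (adjusted p = 0.074; 0.084 with the block). Class I genes are close paralogues, and whether their probe sets share signal was not tested.

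**Figure D4:**
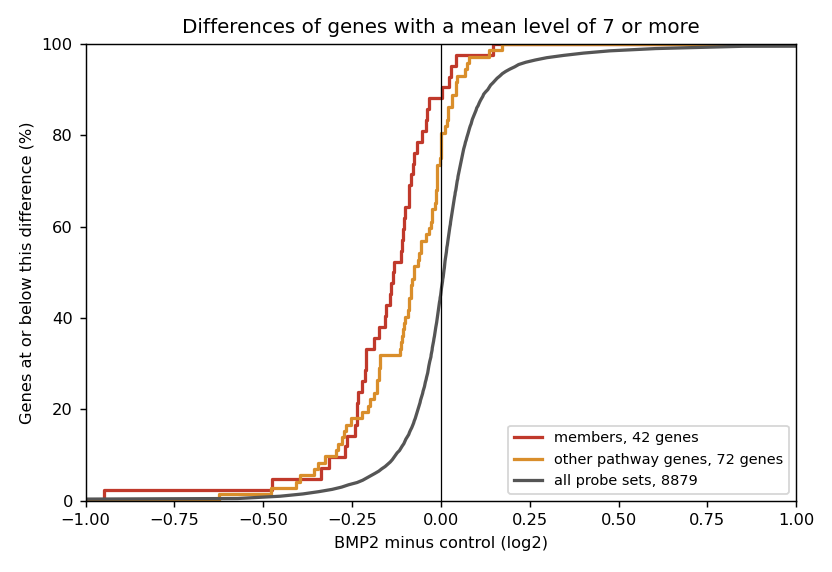
Share of genes (%) at or below each difference, BMP2 minus control (log2), among genes with a mean level of 7 or more. Red is the 42 members, orange the 72 genes of 5 other pathway lists without the ligands, and grey all 8879 probe sets. The medians are -0.13 for the members, -0.08 for the other pathway genes and 0.01 for all probe sets.

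Markers of other cell types were set beside these values. The mean level of the 13 Kupffer cell and macrophage markers ranged from 6.67 to 6.69 in BMP2 samples and from 6.68 to 6.74 in control samples, and 12 of the 13, Clec4f, Cd5l, Vsig4, Timd4 and Adgre1 among them, lay near the floor. The exception Cd68 differed by -0.34 ± 0.18 (limma adjusted p = 0.561). The 10 endothelial markers ranged from 6.74 to 6.80 in BMP2 and from 6.73 to 6.77 in control samples. The 10 stellate cell and fibroblast markers ranged from 6.81 to 6.87 in BMP2 and from 6.86 to 6.92 in control samples. None of the markers of these 3 lists passed without or with the block. In the same order of lists 7 of 13, 9 of 10 and 6 of 10 markers had a higher mean in BMP2 samples. This held for 10816 of the 21115 probe sets. The median differences of the 3 lists were 0.002, 0.01 and 0.001. Acta2, of the stellate list (-0.49 ± 0.13, adjusted p = 0.197), and the bile duct keratin Krt19 (-0.51 ± 0.08, adjusted p = 0.073) had lower values in BMP2 samples without overlap. Of the 5 measured bile duct markers 4 had a lower mean, with a median difference of -0.005. Sox9, also of the bile duct list, was higher (0.46 ± 0.10, adjusted p = 0.144; 0.039 with the block). Of the 14 hepatocyte markers 11 had a higher mean, and their median difference was 0.18. Past the threshold 1 was higher (Hnf4a), and 4 with the block, against 0.616% and 1.68% of all probe sets. Mean levels of the hepatocyte markers were 10.30 to 10.59 in BMP2 and 10.07 to 10.30 in control samples. The part of these shifts in the members' differences was not tested. In bulk samples fewer cells of a type and less RNA per cell cannot be told apart.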

How the data were processed

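Expression was measured on an Affymetrix array in 3 BMP2 and 3 control samples. The table deposited by the authors gives log2 values that RMA (robust multi-array averaging) had produced, per the submitters' processing notes. Its version and probe grouping are not stated in the sources used here. Differences of dim genes are understated on this scale. The values were tested without further normalization. Probe sets were named through the platform annotation by gene number (20405 of 21115), and promoters came from RefSeq. An array holds no counts, and precision rested on 3 samples per group.

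limma 3.58.1 in R 4.3.3 (lmFit, eBayes, two-sided) was fitted to all 21115 probe sets, and the script was tested on simulated data. Every SE and adjusted p came from limma. The planned test had no replicate block. The study design names 3 mice, and deviations from group means correlated at 0.48, 0.58 and 0.61 between same-numbered samples, with each sample closest to its own number. The numbers were therefore treated as pairs in the counts by pair and in the blocked models. The planned test, with its SE and adjusted p, did not use this pairing. Blocked values are given where they change a call, and for some members close to one. The members and lists were chosen with earlier results of these data known.

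Values in every sample were given for the 14 members with the smallest p, the extremes of each role, 11 fixed genes and those past the threshold in either model. Other members were given by difference. From each list of other genes up to 4 with the smallest p could be named. Ifnb1, Ifng, Ifnl2, Ifna5, Ifnl3, Calr, Rnf213 and Id1 were chosen outside that rule. No protein sequences were used here.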

Additional observations from a re-analysis of the deposited data

How the results depend on the processing

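Ifnar2 was lower in all 22 alternative models, and the median difference of the members stayed between -0.13 and -0.06. It was -0.06 without both samples of replicate 3, against -0.11 with all samples. The count of probe sets past the threshold was 251, and that of members was 1. With the replicate block these were 702 and 2, with a random block 700 and 5, with the block and an intensity trend 1278 and 13, with the trend alone 438 and 2, and with the robust trend 468 and 3. Among probe sets with a mean of 7 or more they were 443 of 8879 and 5 of 42, and above the median 449 and 5, where fewer genes were tested. Array weights gave 403 and 3, and an adjusted p of 0.1 gave 567 and 5. Quantile normalization gave 3 members. Without 1 sample they ranged from 30 (control replicate 2) to 223 (BMP2 replicate 3) and from 0 to 2, with 53 and 76 probe sets without BMP2 replicates 1 and 2 and 60 and 83 without control replicates 1 and 3. Without both samples of replicate 1, 2 or 3 there were 9, 2 and 114 probe sets and 0 members. With the block as well, 0 probe sets and 0 members passed in each of these. The 13 members called with the block and trend were Bst2, Dtx3l, Gbp2, Gbp7, Ifnar1, Ifnar2, Ifngr1, Oasl2, Parp12, Parp14, Parp9, Psmb8 and Trim30a, all lower. The difference of Irgm1, 0.004, was -0.0232 with array weights, between -0.0469 and 0.0381 without 1 sample, -0.0176 without replicate 1 and -0.0068 without replicate 2, the last pair with or without the block. The cause of these shifts was not tested. Levels near the floor limit what the dim members can show.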

Other observations

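Replicate 3 carried larger differences of the members than the other numbers. The median difference of the 51 members was -0.08 in pair 1, -0.08 in pair 2 and -0.16 in pair 3. Control replicate 3 was the highest control for 31 of the 51 members (60.8%), against 32.7% of all probe sets and 43.5% of probe sets with a mean of 7 or more. BMP2 replicate 3 was the lowest BMP2 sample for 52.9% of the members, against 30.9% of all probe sets and 39.5% of those with a mean of 7 or more. Among the 6 antigen processing genes control replicate 2 was the highest control for 4, and BMP2 replicate 3 was the lowest BMP2 sample for 4.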
